A study of Mus musculus with 6 samples.

Results

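Glutathione S-transferases join the tripeptide glutathione to reactive, electrophilic molecules, which makes them more soluble and lets transporters carry them out of the cell. The soluble mu, alpha, theta and zeta classes share a fold, while the kappa class is built differently and works in mitochondria and peroxisomes. In heart muscle the family is known for clearing reactive aldehydes that form when membrane lipids are oxidised. In addition, the zeta enzyme takes part in tyrosine breakdown.

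The 10 genes described here were Gstk1 of the kappa class, Gstm1, Gstm2, Gstm4, Gstm5, Gstm6 and Gstm7 of the mu class, Gsta4 of the alpha class, Gstt1 of the theta class and Gstz1 of the zeta class, out of 18193 genes on the array. They were measured by every probe set annotated with exactly 1 gene symbol that was one of these names, which gave 14 of 45037 probe sets. The genes were selected on their array signals, with the difference between Glut1-TG and WT already known. Their differences, standard errors and adjusted p are therefore given as a description and were not used as evidence for anything.

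Gene expression was measured in the left ventricle of WT and Glut1-TG mice, with 3 arrays in each group. All mice were males on an FVB background, 11 to 12 weeks old, on standard chow. Glut1-TG mice carry human Glut1, a glucose transporter that does not depend on insulin, driven by the alpha-myosin heavy chain promoter, so that it is made in cardiomyocytes, and the comparison asks what raised glucose uptake does to cardiac gene expression. The controls are labelled as wild type. The labels number the arrays within each group but do not say that each came from a separate mouse. The p values therefore rest on the spread between arrays, which may not be that between mice. In limma this spread is also drawn towards that of other genes of like signal. No detection calls were used, and the number of arrays limits the precision of every value.

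Each array had been scaled to the same trimmed mean, and the median signal ran from 170.7 to 187.2 in WT and from 181.1 to 213 in Glut1-TG. Mouse Slc2a1, the gene of Glut1, checks the labels poorly because the transgene is human. The signal of its brightest probe set was above every WT array in all Glut1-TG arrays (787 ± 55.4 against 489 ± 70.0, mean ± SD, n = 3 each), and that of its 2 other probe sets was below every WT array. All 12 cardiomyocyte markers were well measured, and none passed the test. Their log2 differences were all negative, with a median of -0.19, and their summed signal was 483207 to 584850 in WT and 452694 to 479874 in Glut1-TG. Of 5 atrial genes, the light chains Myl7 and Myl4 were higher in Glut1-TG, Nppa (-0.07) and Bmp10 (-0.61) did not pass, and Sln (-1.13) was too dim to be tested, the values being log2 differences. The signal of Myl7 was 26.5, 90.5 and 14.2 in WT and 378, 713 and 315 in Glut1-TG. Its WT arrays were all under the 115 that a probe set's mean had to reach, so it was tested only through its Glut1-TG arrays. Of the hepatocyte markers Apoa1 and Ttr were too dim to be tested. The part that these marker differences play in the transferase values was not tested. In a whole ventricle, fewer cells of a type and less RNA per cell cannot be told apart.

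Gstk1, Gstm2, Gstm7 and Gsta4 were lower in Glut1-TG than in WT, by 2.84-fold, 2.28-fold, 2.76-fold and 1.52-fold. In the limma fit over all genes, 4 of the 9 transferase genes bright enough to be tested passed the adjusted threshold of 0.05 downwards, against 0.599% of the 13178 genes tested. None passed upwards, where 0.258% of all genes did, and at an unadjusted p under 0.05 the count upwards was 2, against 5.47% of all genes. The remaining 5 genes, Gstm1, Gstm4, Gstm5, Gstt1 and Gstz1, did not pass. The groups did not overlap, with Glut1-TG on the lower side, for 4 genes, against 8.77% of all genes, and with Glut1-TG on the upper side for 2 genes, against 8.67%. Over the 9 genes the median log2 difference was -0.06, beside 0.02 over all genes tested. Taken by probe set, 3 of 13 passed downwards, against 0.31% of 22551 probe sets tested. Gstm6 was below the signal of 115 that a probe set had to reach, and entered neither fit.

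**Figure D1:**
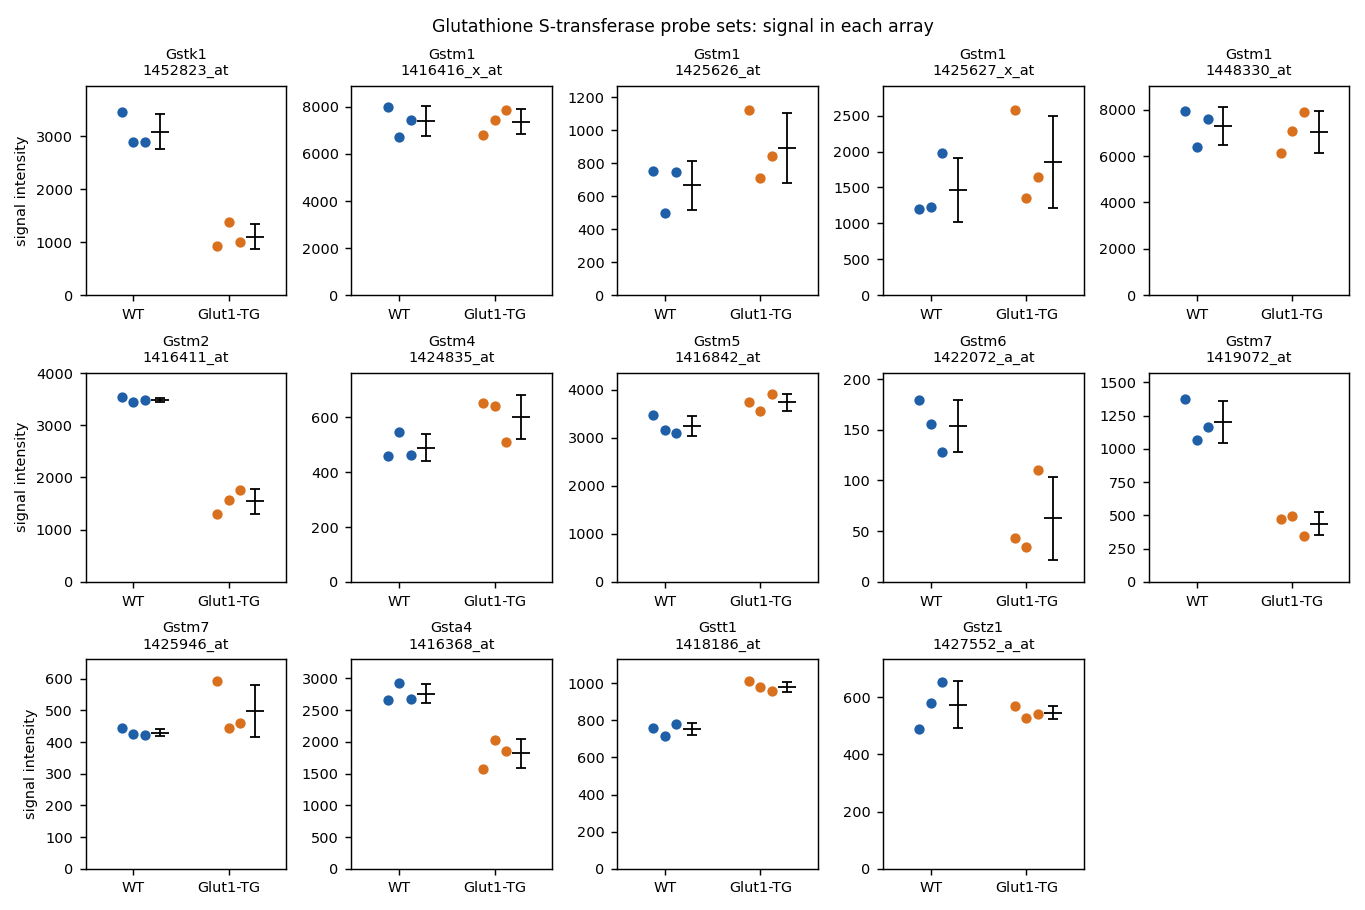
Signal intensity (linear scale, from 0) of the 14 transferase probe sets in the 3 WT (blue) and 3 Glut1-TG (orange) arrays, with the mean and SD of each group as a black bar. The Glut1-TG arrays are all below the WT arrays for Gstk1, Gstm2, Gstm6, Gsta4 and 1419072_at of Gstm7, all above for Gstm5, Gstt1 and 1425946_at of Gstm7, and overlap with them in the 4 probe sets of Gstm1 and in Gstm4 and Gstz1.

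To show the stretches before the starts of genes that differed and of neighbours that did not, the 100 bases upstream of the first annotated start are given for 5 members, from RefSeq on GRCm38.p6, 5′ to 3′ along each gene's own strand. Of the 10 members, 9 were matched in that table, with 15 starts. The windows are chr3:107895754-107895853 on the plus strand for Gstm5, chr3:107931818-107931917, chr3:107986421-107986520 and chr3:108017974-108018073 on the minus strand for Gstm7, Gstm2 and Gstm1, and chr6:42245835-42245934 on the plus strand for Gstk1. Capitals mark a match to TGACNNNGC, the core of the antioxidant response element, in Gstm5, and to GCGTG, the core of the xenobiotic response element, in Gstm1.
Gstm7: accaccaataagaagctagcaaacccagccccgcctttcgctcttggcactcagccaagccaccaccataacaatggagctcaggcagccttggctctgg
Gstm2: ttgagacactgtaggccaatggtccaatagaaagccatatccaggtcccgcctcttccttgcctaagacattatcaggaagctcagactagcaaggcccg
Gstk1: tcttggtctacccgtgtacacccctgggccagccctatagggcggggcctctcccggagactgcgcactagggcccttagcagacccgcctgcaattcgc
Gstm5: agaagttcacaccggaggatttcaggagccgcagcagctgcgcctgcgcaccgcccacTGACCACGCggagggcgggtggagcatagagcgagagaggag
Gstm1: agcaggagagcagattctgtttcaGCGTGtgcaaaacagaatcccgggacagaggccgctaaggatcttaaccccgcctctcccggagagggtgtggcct

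The motifs were searched on both strands from 250 bases before to 50 bases after each start. TGACNNNGC was found in 2 of 9 members, Gstm5 and Gstm7, and in 14% of the 27025 genes with a start in the table. In Gstm5 it reads TGACCACGC and begins 42 bases before the start. Its last letters are also a reverse match to GCGTG. In Gstm7 it reads TGACAAAGC and lies 129 bases before a later annotated start, within the transcript of the first start. GCGTG was found in 2 of 9 members, Gstm1 and Gstm5, and in 35.2% of genes. The cAMP response element TGACGTCA was found in 0 of 9 members and in 2.03% of genes. The other 6 matched members, Gstk1, Gstm2, Gstm4, Gstm6, Gstt1 and Gstz1, had none of the 3 motifs in any window. Genes that passed the fit below stood among those with a match (Gstm7) and among those without (Gstk1 and Gstm2).

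Gstk1, the kappa enzyme, had the largest difference of the tested members. Its signal was 3460, 2891 and 2890 in the WT arrays and 918, 1369 and 1008 in the Glut1-TG arrays. The lowest WT array was thus far above the highest Glut1-TG array. The log2 difference, Glut1-TG minus WT, was -1.50 ± 0.15 (SE, limma, adjusted p = 0.00198), which is a WT signal 2.84-fold higher, with a 95% interval from 2.24 to 3.59. It stood in place 21 of the 13178 genes counted from the most negative difference. Gstk1 has a single probe set on the array under the rule, so no second reading was at hand.

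Gstm2 is a mu class enzyme whose human counterpart is known as the muscle form. Its signal was 3534, 3444 and 3480 in WT and 1294, 1570 and 1757 in Glut1-TG. The WT arrays lay close together, with a coefficient of variation of 1.30%, whereas that of the Glut1-TG arrays was 15.1%, and the groups stood far apart. The log2 difference was -1.19 ± 0.12 (SE, limma, adjusted p = 0.00176), and the WT signal was 2.28-fold higher, with a 95% interval from 1.90 to 2.73.

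Gstm7, also of the mu class, was read differently by its 2 probe sets. By the brighter of them, 1419072_at, the signal was 1379, 1064 and 1165 in WT and 476, 499 and 342 in Glut1-TG, with every Glut1-TG array under the WT range. The log2 difference there was -1.47 ± 0.18 (SE, limma, adjusted p = 0.00650), and the WT signal was 2.76-fold higher, with a 95% interval from 2.09 to 3.64. By the dimmer probe set, 1425946_at, the signal was 443, 425 and 421 in WT and 592, 443 and 461 in Glut1-TG. Here every Glut1-TG array was above every WT array, the closest pair being almost equal, and the log2 difference of 0.20 ± 0.18 did not pass in the probe set fit (SE, limma, adjusted p = 0.734). The log2 differences of the 2 probe sets were 1.67 apart. Of 5612 genes with at least 2 probe sets, the median gap was 0.32 and that of Gstm7 was at percentile 99.1. The lower level of Gstm7 therefore rests on 1 of 2 probe sets, and averaging them gave a log2 difference of -0.63 that did not pass (limma, adjusted p = 0.162).

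Gsta4 is the alpha class enzyme that conjugates hydroxynonenal, an aldehyde from oxidised lipids. Its signal was 2658, 2930 and 2681 in WT and 1575, 2025 and 1860 in Glut1-TG. The groups did not overlap. The log2 difference was -0.61 ± 0.11 (SE, limma, adjusted p = 0.0425), and the WT signal was 1.52-fold higher, with a 95% interval from 1.28 to 1.81. This call was near the threshold and was lost without any 1 of 5 of the arrays, with an adjusted p of 0.0631 without Glut1-TG replicate 1, 0.105 without Glut1-TG replicate 3, and 0.136, 0.191 and 0.162 without WT replicates 1, 2 and 3. Gstk1, Gstm2 and Gstm7 still passed when any 1 of the 6 arrays was left out, with an adjusted p of at most 0.0206, 0.0192 and 0.0432.

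Gstm6 was dim in every array. Its signal was 179, 155 and 128 in WT and 43.3, 34.6 and 110 in Glut1-TG. All Glut1-TG arrays were under the WT arrays and also under the signal of 115 at which probe sets were left out, so that the size of the difference was not determined. With no filter the difference did not pass in the probe set fit (limma, adjusted p = 0.508).

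Gstm1, one of the main mu enzymes of liver, did not separate the groups. By the brightest, 1416416_x_at, the signal was 7995, 6730 and 7461 in WT and 6803, 7445 and 7855 in Glut1-TG. The groups covered the same range. The log2 difference was 0.00 ± 0.09 (SE, limma, adjusted p = 0.992), and the 95% interval of the fold, WT over Glut1-TG, ran from 0.869 to 1.16. The name of this probe set ends in _x_at, as does that of 1425627_x_at, and such probe sets can read related genes. The log2 differences of the other 3 probe sets, 1448330_at, 1425626_at and 1425627_x_at, were -0.06, 0.42 and 0.33, and none passed.

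Gstm5, a mu enzyme known from brain and testis, and Gstt1, the theta enzyme that acts on small halogenated compounds, were at higher signal in every Glut1-TG array than in any WT array, but neither passed. For Gstm5 the signal was 3475, 3161 and 3100 in WT and 3746, 3564 and 3914 in Glut1-TG. For Gstt1 it was 757, 717 and 782 in WT and 1011, 978 and 956 in Glut1-TG. The gap between the groups was wider for Gstt1, with a log2 difference of 0.39 ± 0.12 (SE, limma, adjusted p = 0.247), than for Gstm5, with 0.21 ± 0.09 (SE, limma, adjusted p = 0.416).

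The remaining members overlapped between groups. For Gstm4, of the mu class, the signal was 458, 546 and 463 in WT and 653, 642 and 509 in Glut1-TG, with a log2 difference of 0.29 ± 0.17 (SE, limma, adjusted p = 0.553). Here 2 of the 3 Glut1-TG arrays were above all WT arrays. For Gstz1, the zeta enzyme, which isomerises maleylacetoacetate in tyrosine breakdown, the signal was 488, 582 and 654 in WT and 570, 529 and 541 in Glut1-TG. All Glut1-TG arrays fell inside the WT range, and the log2 difference was -0.06 ± 0.16 (SE, limma, adjusted p = 0.920).

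**Figure D2:**
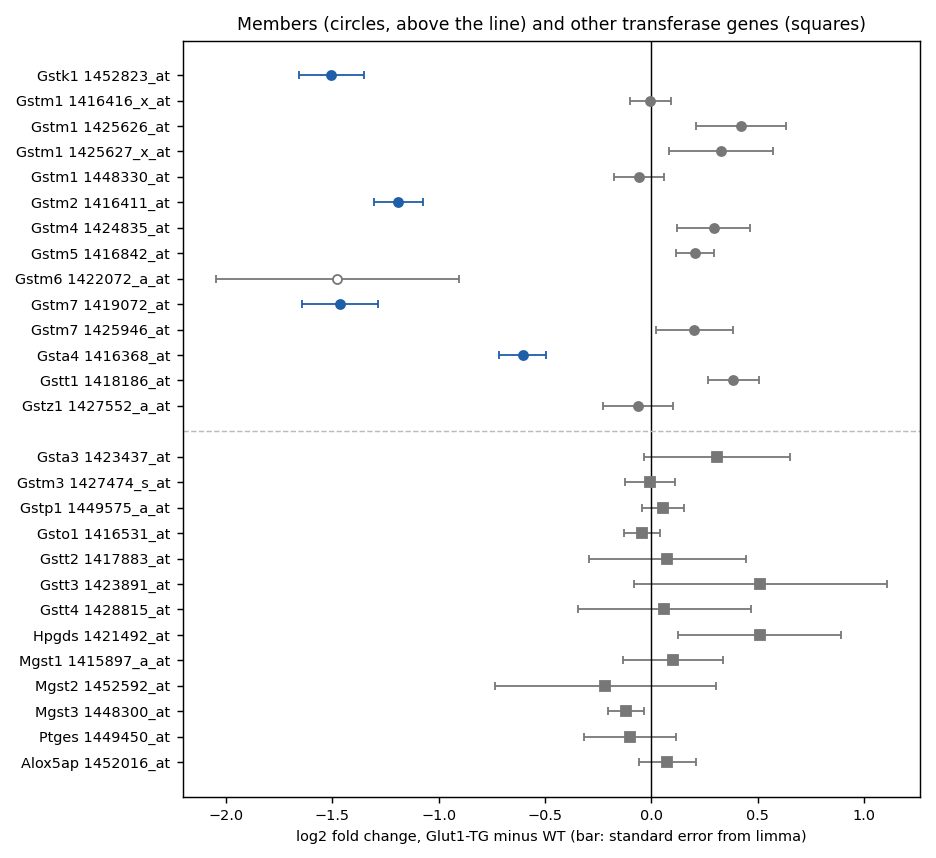
Log2 fold change (Glut1-TG minus WT, bars are the limma standard error without the filter) of the 14 member probe sets (circles) and of 13 other soluble and microsomal transferase genes (squares, brightest probe set each). Blue marks the probe set standing for a gene that passed, an open symbol one under the filter. Every blue circle lies to the left of all squares, but the members were chosen with this difference known, so the separation is a description only. The other probe set of Gstm7, 1425946_at, lies on the right of 0 at 0.20.

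Outside the members, no tested transferase passed, beside 0.599% of all genes tested downwards and 0.258% upwards. With shares so small, this does not show that these genes are unchanged. Of 13 other soluble genes listed, 11 were on the array and 8 were bright enough, with log2 differences from -0.04 to 0.51 and a median of 0.07. Gstp1, the pi class enzyme, had a signal of 8100 ± 426 in WT and 8450 ± 957 in Glut1-TG (mean ± SD, n = 3 each). Gsto1, the omega enzyme that reduces dehydroascorbate, had 7153 ± 200 in WT and 6946 ± 415 in Glut1-TG. Both differences lay within the spread between arrays. The others were Gsta3 (0.31 ± 0.34), Gstm3 (-0.01 ± 0.11), Gstt2 (0.07 ± 0.37), Gstt3 (0.51 ± 0.60), Gstt4 (0.06 ± 0.40) and Hpgds (0.51 ± 0.38), given as log2 differences ± SE (limma). Of the microsomal genes, an unrelated family with similar chemistry, 5 of 6 were tested. Their log2 differences were 0.10 for Mgst1, -0.22 for Mgst2, -0.12 for Mgst3, -0.10 for Ptges, which makes prostaglandin E, and 0.07 for Alox5ap, which serves leukotriene synthesis. Dimmer probe sets stood at 0.51 and 0.26 for Ptges, 0.25 for Mgst3 and -0.33 for Mgst1. With the mean of the probe sets the sign turned for these genes, to 0.22, 0.06 and -0.11.

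**Figure D3:**
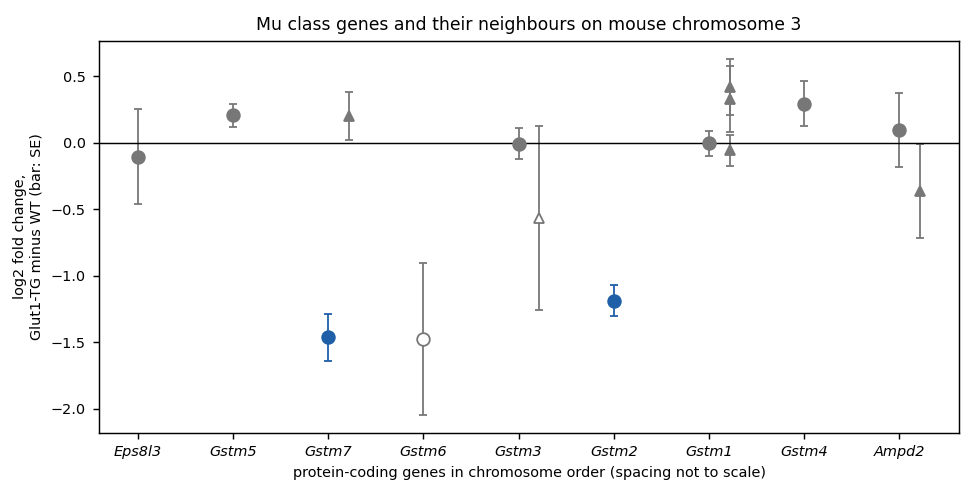
Log2 fold change (Glut1-TG minus WT, bars are the limma standard error without the filter) of the mu class genes and the genes on either side in chromosome order, with a circle for the brightest probe set and triangles for the others. Blue marks genes that passed and open symbols probe sets under the filter. Gstm7 at -1.47, Gstm2 at -1.19 and the untested Gstm6 at -1.48 are the lowest circles, and the circles of the other 6 genes lie between -0.11 and 0.29. The triangle of Gstm7 lies at 0.20, and the size of the Gstm6 difference was not determined.

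The mu genes lie side by side on mouse chromosome 3, in the order Gstm5, Gstm7, Gstm6, Gstm3, Gstm2, Gstm1 and Gstm4 by the RefSeq annotation of GRCm38.p6. Eps8l3 and Ampd2 are the protein-coding genes on either side. Both genes of the cluster that passed, Gstm7 and Gstm2, lie within it, with Gstm6 and Gstm3 between them. Gstm7 passed by 1 of its 2 probe sets, the other standing at 0.20. Gstm6, too dim to be tested, stood at -1.48 ± 0.57 (SE, limma without the filter). Its Glut1-TG arrays were all under the WT arrays and under the filter, so that the size of its difference was not determined. Gstm3 was read by a probe set ending in _s_at, with a signal of 972 ± 55.3 in WT and 967 ± 41.4 in Glut1-TG, and by another under the filter, at a log2 difference of -0.57. The outer genes of the row did not pass, with log2 differences of 0.21 for Gstm5, 0.00 for Gstm1 and 0.29 for Gstm4. Nor did the flanking genes, at -0.11 for Eps8l3 and 0.10 for Ampd2. Lower signal in Glut1-TG was thus not shared by all genes of the row, and whether the mu genes differ from one another was not tested.

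The other genes of glutathione and detoxication chemistry were taken from 11 lists, which hold the other and microsomal transferases as well. Over these lists, each gene once, 75 of 99 genes were tested, with a median log2 difference of 0.05. Of these genes, 4 passed downwards and 1 upwards, against 0.599% and 0.258% of all genes tested. The lists were chosen with earlier results of these data known, so the counts are a description. At such small shares, a short list in which no gene passed is not thereby shown to be unchanged. None of the 4 tested genes of glutathione synthesis passed, among them Gclc, the catalytic subunit of the first enzyme (-0.54 ± 0.38, SE), and Gss, glutathione synthetase (0.25 ± 0.13). The other probe set of Gclc stood at -0.01, and without Glut1-TG replicate 1 the log2 difference of Gclc was -0.10. None of 10 genes for glutathione reduction and peroxide removal passed either. Gsr, which regenerates reduced glutathione, stood at 0.41 ± 0.17 (SE, limma). Its dimmer probe set stood at 0.56 ± 0.15 and did not pass in the probe set fit (SE, limma, adjusted p = 0.189). Glrx5 stood at -0.18 ± 0.08 (SE, limma, adjusted p = 0.410). Gpx3, a secreted peroxidase, stood at 0.42 ± 0.10 (SE, limma, adjusted p = 0.107). It passed after quantile normalization (0.51, adjusted p = 0.0228) and with centring on the cardiomyocyte markers (0.62, adjusted p = 0.0417).

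Oplah was lower in Glut1-TG. It is the oxoprolinase that returns oxoproline, a breakdown product of glutathione, to glutamate. Its signal was 1272 ± 149 in WT and 614 ± 38.4 in Glut1-TG (mean ± SD, n = 3 each), with a log2 difference of -1.05 ± 0.13 (SE, limma, adjusted p = 0.00655). It was the 1 gene of 8 tested for glutathione breakdown that passed, and the call was lost without WT replicate 2 (-0.95, adjusted p = 0.0501) and with centring on the cardiomyocyte markers (-0.85, adjusted p = 0.0681). Of 4 export genes none passed, with 0.37 ± 0.12 (SE, limma) for Abcc1, a pump for glutathione conjugates. Its other probe set, ending in _s_at, stood at 0.56 ± 0.16 and did not pass in the probe set fit (SE, limma, adjusted p = 0.241). Abcc5 stood at -0.13 ± 0.17 and Abcc3 at -0.19 ± 0.43 (SE, limma).

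Among 6 genes that supply NADPH, 1 fell and 1 rose. Idh2, the mitochondrial isocitrate dehydrogenase, had a signal of 31364 ± 4177 in WT and 18864 ± 406 in Glut1-TG (mean ± SD, n = 3 each), with a log2 difference of -0.73 ± 0.10 (SE, limma, adjusted p = 0.00953). Its second, far dimmer probe set stood at 0.09, and the mean of both did not pass (-0.32, adjusted p = 0.654). Pgd, of the pentose phosphate pathway, had 1041 ± 69.4 in WT and 1534 ± 76.2 in Glut1-TG, with a log2 difference of 0.56 ± 0.11 (SE, limma, adjusted p = 0.0485). Its 3 other probe sets stood at 0.48, 0.53 and 0.70. The call of Pgd was lost when any 1 array other than Glut1-TG replicate 1 was left out, with an adjusted p of 0.165, 0.124 and 0.222 without WT replicates 1, 2 and 3 and of 0.164 and 0.105 without Glut1-TG replicates 2 and 3. It was also lost after quantile normalization (adjusted p = 0.0543) and with centring on the median (0.356) or on the cardiomyocyte markers (0.0555).

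NRF2 is the factor known for inducing many of these genes under oxidative stress. None of the 14 tested genes in the list of NRF2, its regulator and its targets outside the transferases passed. At an unadjusted p under 0.05 (limma), 2 were lower and 2 higher, beside 765 and 721 of all 13178 genes. All Glut1-TG arrays were above all WT arrays for 3 genes and below for 0, against 8.67% and 8.77% of all genes. Of the 14 genes, Nqo1, a quinone reductase, stood at 0.47 ± 0.12 (SE, limma, adjusted p = 0.143), Ephx1, an epoxide hydrolase, at 0.36 ± 0.11 (adjusted p = 0.245) and Hmox1, heme oxygenase, at -0.60 ± 0.22 (adjusted p = 0.365). Among 8 genes of xenobiotic receptors and P450 reactions, Cyp2b10, a P450 enzyme best known from liver, fell. Its signal was 1171 ± 357 in WT and 172 ± 31.0 in Glut1-TG (mean ± SD, n = 3 each), with a log2 difference of -2.74 ± 0.26 (SE, limma, adjusted p = 0.00143), by a probe set ending in _s_at that can read related genes. Its 2 other probe sets stood at -3.16 and -3.90. Without Glut1-TG replicate 2, where the brightest probe set was another, the log2 difference was -2.10 and did not pass (adjusted p = 0.0883).

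Fah, which acts on the product of the Gstz1 step of tyrosine breakdown, was lower in Glut1-TG, whereas Gstz1 itself did not pass. The signal of Fah was 1094 ± 106 in WT and 466 ± 110.1 in Glut1-TG (mean ± SD, n = 3 each), with a log2 difference of -1.25 ± 0.18 (SE, limma, adjusted p = 0.0140). The call was lost without WT replicate 1 (adjusted p = 0.0917) or WT replicate 2 (0.0914). None of 8 genes for the removal of reactive aldehydes, the chemistry of Gsta4, passed. The nearest was Aldh2, the mitochondrial aldehyde dehydrogenase, at -0.76 ± 0.16 by its brightest probe set (SE, limma, adjusted p = 0.0701), which passed without Glut1-TG replicate 3 (adjusted p = 0.00534). Its 4 dimmer probe sets stood at 0.50, 1.02, -0.01 and -0.52, and with the mean of the probe sets the sign turned, to 0.05 (adjusted p = 0.976).

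**Figure D4:**
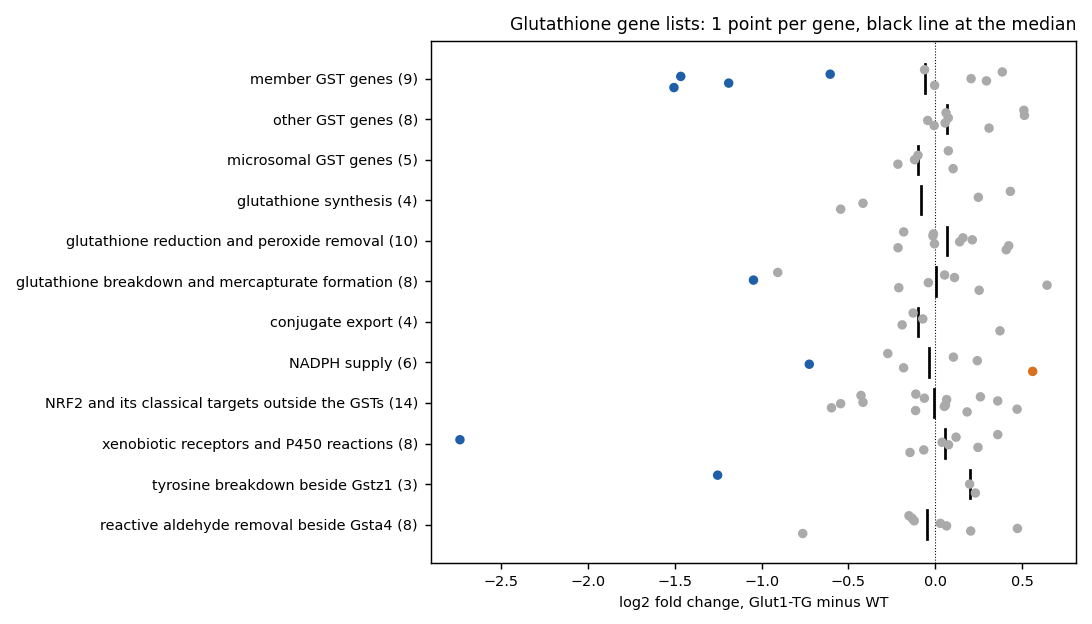
Log2 fold change (Glut1-TG minus WT) of each tested gene in the 12 lists, members first, with the number of genes tested in parentheses and a black line at the list's median. Blue points passed downwards and orange upwards, and the 4 blue members lie at -1.50, -1.47, -1.19 and -0.61.

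How far each member's value depended on the processing was then compared. Over 18 other settings the log2 difference ran from -1.67 to -1.31 for Gstk1, from -1.29 to -0.996 for Gstm2, from -1.57 to -0.63 for Gstm7 and from -0.71 to -0.41 for Gsta4, always negative. Settings that changed only the signal filter, the test, the variance trend or the block could not move the log2 difference of a probe set. When the arrays were centred on the cardiomyocyte markers, which raised the median of all genes to 0.21, the log2 differences of these genes were still -1.31, -0.996, -1.27 and -0.41. The calls of Gstk1, Gstm2, Gstm7 and Gsta4 needed the variance trend over intensity that limma fitted. Without it their adjusted p was 0.108, 0.108, 0.109 and 0.273.

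**Figure D5:**
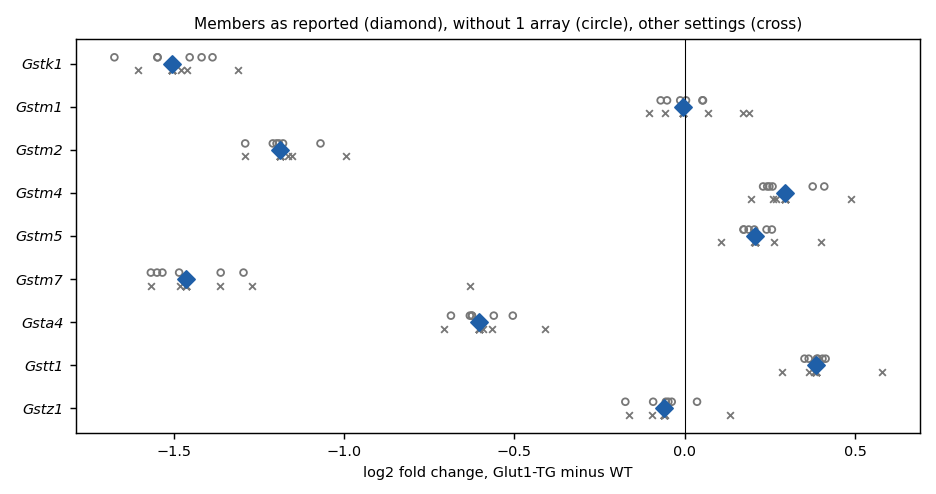
Log2 fold change (Glut1-TG minus WT) of the 9 tested members as reported (diamond), without 1 array (circles, 6 per gene) and under the other settings (crosses). Gstk1, Gstm2, Gstm7 and Gsta4 stay below 0 in every setting drawn, while Gstm1 and Gstz1 fall on both sides of it. Crosses for the signal filters, the tests, the variance trend and the block repeat the diamond's value, which these settings cannot change.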

How the data were processed

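The authors labelled ventricular RNA as biotinylated cRNA and processed the Affymetrix scans with GCOS (per the labels; version not given in the sources used here). The deposited values are a linear signal intensity per probe set, and each array's mean, with 2% trimmed from either end, was 500, so no further scaling was applied. Such scaling sets values relative to the rest of the array, so it cannot show a change in total RNA.

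Symbols came from the platform annotation: 34945 probe sets had 1 symbol and were used, 932 had several and 9160 had none. Values under 1 (48 in all) were set to 1 before log2. Each gene was represented by its brightest probe set, and the lowest 40% of probe sets by mean (under a signal of 115) were left out. Glut1-TG and WT were compared in R 4.3.3 with limma 3.58.1 (lmFit, eBayes with an intensity trend), with Benjamini-Hochberg adjustment across the 13178 genes; a second fit took 22551 probe sets. The procedure was also run on simulated data with independent normal noise. That run checked only that called genes had the right sign and that larger changes were found more often. It cannot show whether the calls made here are right. The members and lists were chosen with earlier results of these data known. Named were all members and other transferases and, per list, the genes that passed and otherwise up to 3 with the smallest unadjusted p, together with brighter markers and Slc2a1; the flanking genes of the mu row were added after the data were seen. The alternatives were other scalings, filters, probe set choices and tests, each array left out, and the replicate number as a block. Protein sequences were not used here.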

Additional observations from a re-analysis of the deposited data

How the results depend on the processing

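The count of members past the threshold was 4, and 3 to 4 without any 1 array. It was 2 with the mean of a gene's probe sets, and 0 by eBayes without trend. After Benjamini-Hochberg adjustment of the methods' t-test it was also 0, and that test called 0 genes lower and 1 higher of all tested. At the study's thresholds (fold and unadjusted p) it was 5, with Gstt1 added as higher. The count of member probe sets was 3, 2 to 3 without 1 array (2 without WT replicate 1 or 3, where Gstm7 was lost), and 0 by eBayes without trend. Of the other glutathione genes 5 passed, 3 with the mean of probe sets, 10 at the study's thresholds, and 0 by eBayes without trend or by the adjusted t-test. Without 1 array it was 2 to 5: 3 without WT replicate 1, 2 (Cyp2b10 and Idh2) without WT replicate 2 and 3 without Glut1-TG replicate 2. The call of Gsta4 was lost in 11 of 18 settings, among them centring on the median (adjusted p = 0.123) or on the cardiomyocyte markers (0.215). The cause of these changes was not tested. Arrays with the same number deviated with correlations of 0.08, -0.03 and 0.05, and arrays with unlike numbers with -0.107 to 0.0638. With 3 arrays in each group, these values cannot show whether the numbers pair the arrays. With the replicate block 3 members, 3 member probe sets and 4 other genes passed, with Gsta4 (adjusted p = 0.0552) and Pgd lost. Over all genes, 79 were lower and 34 higher. The split was 66 and 48 after quantile normalization, 52 and 14 with median centring, and 29 and 75 with centring on the cardiomyocyte markers. It was 37 and 9 with the mean of probe sets, 46 and 23 with the block, 2 and 2 without trend, and 30 to 63 and 12 to 32 without 1 array. At the study's fold and unadjusted p it was 349 and 423. That split came from a t-test on the 1 filtered probe set per gene used here, so it does not give the study's own counts. The sign changed in 8 of 162 values of members, all of Gstm1 or Gstz1, and in no value that was called. The 162 values include those of the signal filter, test, trend and block settings, where the sign could not change. Low signal limits Gstm6, whose Glut1-TG arrays were all under the filter.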
